A study of Mus musculus with 6 samples.

Results

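The genes described here are 41 genes of DNA replication and S phase, chosen by name for their known role: the origin licensing factors and the MCM subunits, the factors that fire origins, the polymerases and other fork proteins, the enzymes of nucleotide supply, 3 chromatin factors, and the E2F and cyclin E genes that control entry into S phase. The list was drawn up with earlier results of these data known, so its counts beside those of all genes are descriptive. It does not hold every gene of these roles, and further genes of the pathway are given below. All 41 were among the 56748 genes in the tables and among the 16605 genes with enough reads to be tested. RNA was sequenced from the uteri of C57BL/6 females at 1600 h on day 4 of pregnancy, after mating and shortly before embryos attach, from 3 control and 3 Gp130 ecKO uteri. The labels give the background as C57BL/6 and the methods as C57BL/6J. Gp130 ecKO females carried Gp130 flox/flox and Ltf-iCre, which deletes Gp130 (gene symbol Il6st, the shared signalling receptor of leukemia inhibitory factor and related cytokines) in the uterine epithelium. The labels call the control uteri WT, and the methods describe controls as Gp130 flox/flox females without iCre or wildtype females, and all females as over 8 weeks old. Ltf-iCre is directed to the epithelium, and Ltf is also expressed in some neutrophils and macrophages. Deletion by cell type is not measured here, and the libraries were made from uterine tissue in which all of these cells are mixed.

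Before a cell copies its DNA, the origin recognition complex with CDC6 and CDT1 loads rings of MCM2 to MCM7 onto DNA (licensing). CDC45 and the GINS complex then turn each ring into an active helicase, and polymerases, the sliding clamp PCNA and the ligase copy both strands. Transcription of most of these genes is switched on by E2F factors when cyclins and their kinases inactivate the RB proteins. The mRNAs of these genes therefore mark cells in or entering S phase. In the mouse uterus around the start of implantation, progesterone stops division of the luminal epithelium while stromal cells begin to divide.

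Levels are given as CPM, the reads of a gene relative to the scaled total of its library, and the 2 groups were tested by edgeR (quasi-likelihood F test, Benjamini-Hochberg adjustment over all 16605 genes). A gene was called when its adjusted p was below 0.05 and its level differed more than 2-fold. Total counts per uterus ranged from 13960748 (control 3) to 25906443 (control 2). The labels do not say that the uteri came from separate animals, so p-values measure the spread between these samples. With 3 uteri against 3, the exact two-sided permutation test of a single gene cannot go below p = 0.1.

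The replication genes were lower in Gp130 ecKO uteri in the fitted values of 40 of 41 members, but none passed the call. Their median log2 fold change was -0.98, against -0.05 over all tested genes, and ranged from -2.01 (Mcm10) to 0.18 (E2f2). A fitted change below 0 was found for 52.9% of all tested genes. No member was called by the quasi-likelihood test, and the share called among all genes was 0.157% (26 genes, either direction). Adjusted p-values ran from 0.0873 (Dut) to 0.956 (Tyms). At an unadjusted p below 0.05, 25 of 41 members (61%) were lower in Gp130 ecKO, against 12.9% of all tested genes, and no member was higher, against 12.1%. That count of 25 was 13 without control 1, 10 without control 3, 12 without Gp130 ecKO 1, 11 without Gp130 ecKO 3, 27 without Gp130 ecKO 2 and 30 without control 2. Every Gp130 ecKO uterus lay below every control uterus for 16 members, against 15.6% of all tested genes, and the opposite order was seen for none of the members and 15.7% of all genes. Other tests on the same counts called more members, all lower in Gp130 ecKO: 7 by the exact test of edgeR (3.79% of all genes called lower), 8 by its likelihood ratio test (4.01%), and 15 by DESeq2 (4.87%).

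The number of calls by the quasi-likelihood test depended on 1 control uterus. Control 2 was the lowest control uterus for 39 of 41 members, while over all tested genes it was the lowest control for 30.3%. Control 3 was the highest control for 33 members. Control 2 lay at or below the highest Gp130 ecKO uterus for 25 members, whereas control 1 or control 3 did so for 5. The summed CPM of the 41 genes was 1553.2, 916.9 and 1787.7 in control uteri 1, 2 and 3, compared with 779.3, 970.7 and 795.5 in Gp130 ecKO uteri 1, 2 and 3, so control 2 lay inside the range of the Gp130 ecKO uteri. Without control 2, the median log2 fold change of the members was -1.19 and 9 members were called, all lower in Gp130 ecKO (Uhrf1, E2f8, Gins1, Cdc45, Rpa2, Pola2, Mcm3, Mcm4 and Dut), against 1.81% of 17142 genes called lower. In that comparison every Gp130 ecKO uterus lay below both remaining controls for 36 of 41 members, against 21.6% of all genes. Since control 2 was the lowest control for 39 of these same members, leaving it out widens their difference by construction, and the counts without it describe that dependence and are not further evidence of a difference. No member was called without any other uterus. Among the Gp130 ecKO uteri, uterus 1 was the lowest for 29 members and uterus 2 the highest for 31. The map of relative levels shows this order of the uteri across nearly all roles.

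**Figure D1:**
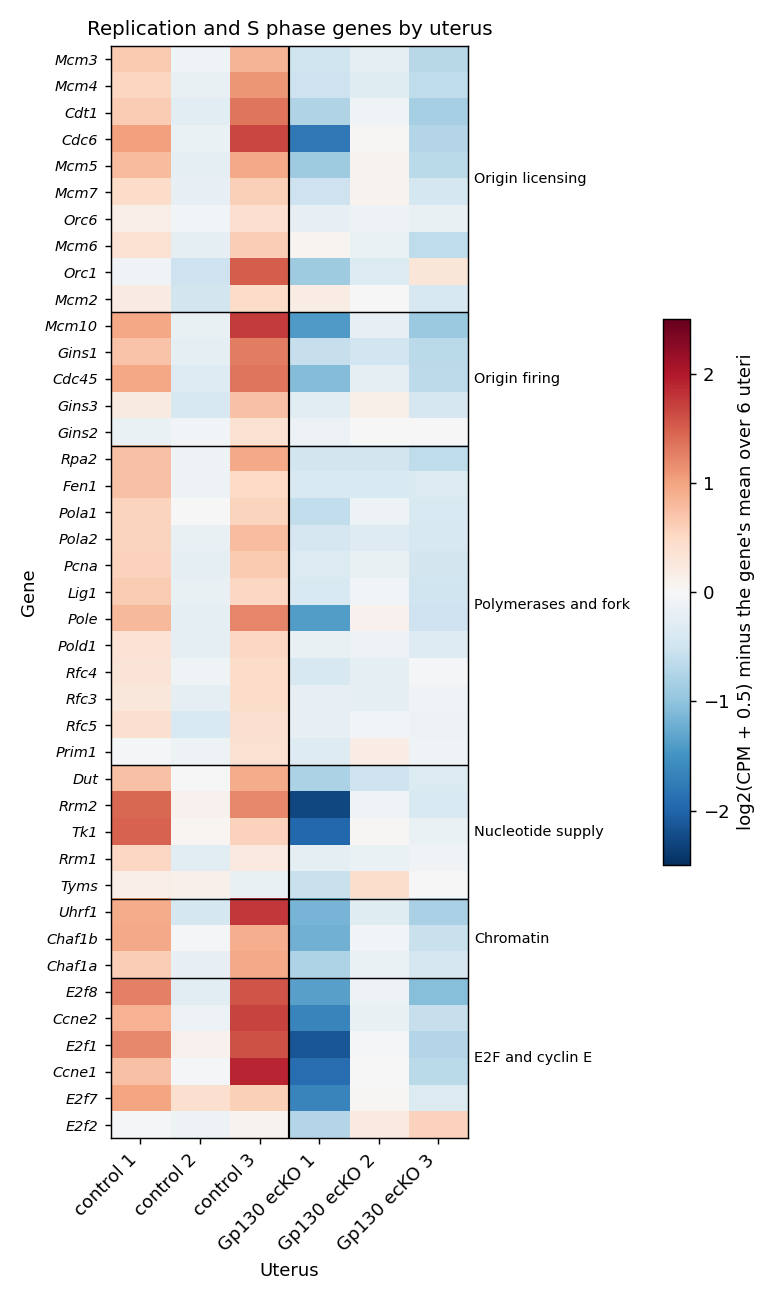
Level of each of the 41 replication and S phase genes (rows, grouped by role) in each of the 6 uteri (columns), as log2(CPM + 0.5) minus the gene's mean over the 6 uteri. Controls 1 and 3 are high, control 2 is near the Gp130 ecKO uteri, and Gp130 ecKO 1 is the lowest Gp130 ecKO uterus for 29 genes.

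Licensing factors were lower in Gp130 ecKO by a median log2 fold change of -0.93 over 10 genes, of which 5 had an unadjusted p below 0.05 and 3 did not overlap between groups. The shares of all tested genes against which these counts, and those of each other role, stand are 12.9% and 15.6%. With a uterus left out, the licensing genes at an unadjusted p below 0.05 numbered from 2 (without control 3, Gp130 ecKO 1 or Gp130 ecKO 3) to 7 (without control 2), with 3 without control 1. The licensing genes without overlap numbered 9 without control 2 and 7 without Gp130 ecKO 2. Mcm3, a subunit of the MCM ring (ENSMUSG00000041859, chr1:20870791-20890536 on GRCm39, minus strand), measured 73.7, 43.4 and 84.8 CPM in control uteri 1, 2 and 3, compared with 33.2, 40.1 and 28.9 CPM in Gp130 ecKO uteri 1, 2 and 3. The groups did not overlap, and control 2 was within 4 CPM of the highest Gp130 ecKO uterus. The log2 fold change of Mcm3 was -0.98 ± 0.27 (SE, n = 3 per group; adjusted p = 0.105 by edgeR's quasi-likelihood test), and -1.18 (adjusted p = 0.0323) without control 2, with adjusted p from 0.025 to 0.285 over all alternatives. Mcm4, another ring subunit (ENSMUSG00000022673, chr16:15440211-15455264), measured 82.7, 50.0 and 122.7 CPM in the controls, compared with 39.6, 46.1 and 36.5 CPM in the Gp130 ecKO uteri. Its groups did not overlap either, with a log2 fold change of -1.06 ± 0.31 and an adjusted p of 0.114. Cdt1, the loader of the ring (ENSMUSG00000006585, chr8:123294703-123300293), measured 20.9, 10.8 and 34.7 CPM against 7.73, 12.3 and 7.25 CPM. Control 2 was below Gp130 ecKO 2, so the groups of Cdt1 overlapped, and its log2 fold change was -1.27 ± 0.44 (adjusted p = 0.143).

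The other licensing genes differed in size. Cdc6, the partner of CDT1 in loading, had a mean of 10.3 ± 6.08 CPM in control and 2.90 ± 1.97 CPM in Gp130 ecKO uteri (SD, n = 3 each). Mcm5 had means of 55.0 ± 21.4 and 27.0 ± 10.5 CPM, and both genes overlapped between groups. Mcm7 and Mcm6 had log2 fold changes of -0.59 and -0.51. Orc6, an origin recognition subunit, varied little: its controls averaged 38.0 ± 6.46 CPM and its Gp130 ecKO uteri 29.5 ± 0.857 CPM, without overlap, for a log2 fold change of -0.36 (adjusted p = 0.259). Orc1, the largest origin recognition subunit, rested on control 3, which held 11.4 CPM against 3.40 and 2.43 CPM in the other controls. Its log2 fold change of -0.87 became 0.08 without control 3. Mcm2 had close means (78.9 ± 24.4 against 70.3 ± 14 CPM, log2 fold change -0.17, and 0.04 without control 3). Reads of Mcm7 cannot be fully told apart from those of the similar gene Gm5487, with which 6.23% of its 75-base stretches, counting those in 2 microRNA genes inside it, are shared.

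MCM2 to MCM7 work as a ring with each subunit once, so their mRNAs were also set against Mcm2 within each uterus, a ratio chosen after the values were seen and given without a test. The CPM ratio of Mcm3 to Mcm2 was 0.881, 0.826 and 0.843 in control uteri 1, 2 and 3, compared with 0.4, 0.55 and 0.523 in Gp130 ecKO uteri 1, 2 and 3. Control 2, which was low in most single genes, lay with the other controls in this ratio. Mcm2 itself was lowest of the controls in control 2 (83.7, 52.5 and 100.6 CPM in controls 1, 2 and 3). Dividing by it takes out a fall that both genes share, so the place of control 2 is no further evidence. Mcm4 to Mcm2 ranged from 0.952 to 1.22 in control and 0.478 to 0.661 in Gp130 ecKO uteri, and Mcm6 to Mcm2 from 1.28 to 1.33 and from 0.971 to 1.05. The ratios of Mcm5 (0.584 to 0.756 against 0.235 to 0.535) and of Mcm7 (0.812 to 0.89 against 0.452 to 0.786) were also without overlap, although with a smaller gap. A CPM ratio to Mcm2 below every control in every Gp130 ecKO uterus was found for 26 of the 40 other members, against 7.42% of 16604 genes. The ratios share 1 denominator, the ring gene with the smallest fitted change, and so are not separate observations. That choice of denominator favours lower ratios in Gp130 ecKO uteri for the other members, so the count of 26 is a description only. A ratio shows unequal change of the pair and does not say which gene of the pair moved.

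**Figure D2:**
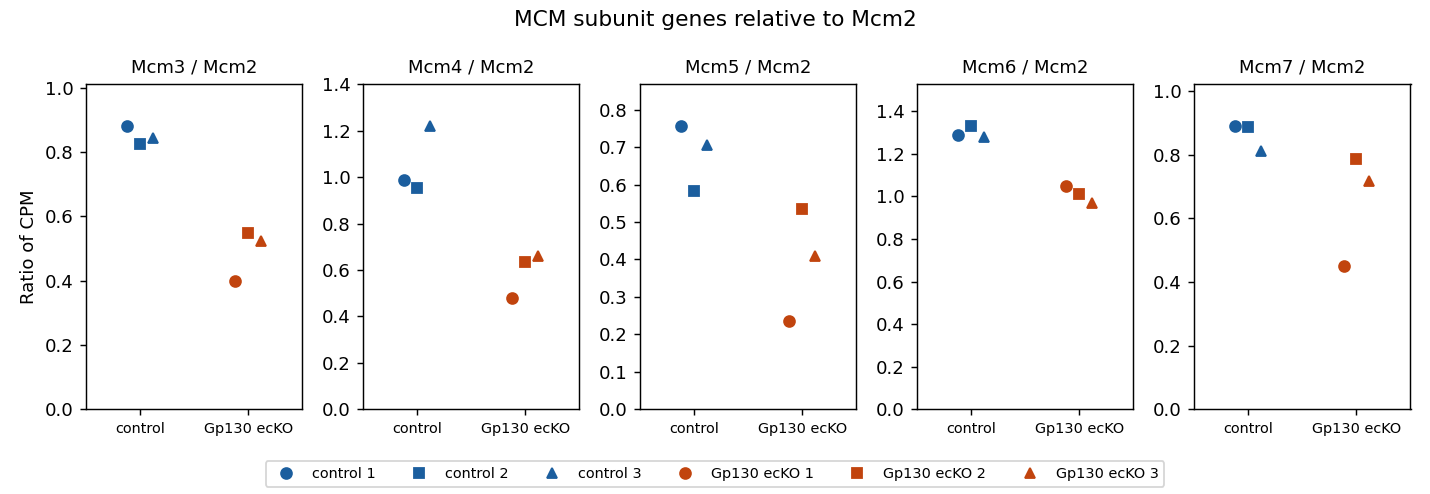
Ratio of the CPM of each of 5 MCM subunit genes to that of Mcm2 in each uterus (points, 3 control and 3 Gp130 ecKO uteri; axes start at 0). All 5 ratios were lower in every Gp130 ecKO uterus than in every control uterus, control 2 included. All share the denominator Mcm2, which among the controls was itself lowest in control 2.

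The sequence before the start of Mcm3 is shown because Mcm3 had the smallest p of the licensing genes. It is the 250 bases upstream of the start in the RefSeq promoter table (GRCm38.p6), placed on GRCm39 by exact match and written 5′ to 3′ on the gene's strand. Capitals mark CCAAT or its reverse complement ATTGG, the letters of the box bound by the factor NF-Y, which stand at -117, -72 and -32 from the start.
Mcm3, chr1:20890537-20890786, minus strand: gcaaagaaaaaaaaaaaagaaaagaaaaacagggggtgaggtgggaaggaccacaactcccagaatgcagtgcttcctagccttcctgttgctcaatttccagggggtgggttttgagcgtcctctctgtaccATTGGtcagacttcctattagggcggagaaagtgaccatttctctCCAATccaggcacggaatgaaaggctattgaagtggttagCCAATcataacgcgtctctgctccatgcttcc
CCAAT was searched on both strands in the 300-base promoters (250 before to 50 after the start) of the 36 members that the table holds. It was found in 25 of their 42 promoters (59.5%), and in 37.4% of all 32851 promoters.

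Origin firing factors had a median log2 fold change of -1.39 over 5 genes, with 3 at an unadjusted p below 0.05 (2 or 3 with any uterus left out, 2 without control 3, Gp130 ecKO 1 or Gp130 ecKO 3). Mcm10, which helps to activate the helicase (ENSMUSG00000026669, chr2:4994516-5017629), measured 7.77, 3.24 and 13.7 CPM in the controls, compared with 1.09, 3.19 and 1.74 CPM in the Gp130 ecKO uteri. Control 2 and Gp130 ecKO 2 were nearly equal, and controls 1 and 3 were more than 2-fold above every Gp130 ecKO uterus. The log2 fold change of Mcm10 was -2.01 ± 0.61, with an adjusted p of 0.118. Gins1, a subunit of GINS (ENSMUSG00000027454, chr2:150747320-150773202), measured 9.14, 4.47 and 13.7 CPM against 3.44, 3.73 and 3.19 CPM, with no overlap and tight Gp130 ecKO values (log2 fold change -1.39 ± 0.43, adjusted p = 0.12). Cdc45, the third part of the active helicase (ENSMUSG00000000028, chr16:18599195-18631551), measured 11.9, 4.55 and 15.7 CPM against 2.49, 4.85 and 3.56 CPM. Control 2 was below Gp130 ecKO 2 for Cdc45 (log2 fold change -1.55 ± 0.50, adjusted p = 0.125). Without control 2, Gins1 and Cdc45 were called and Mcm10 was not (adjusted p = 0.0524, and 0.0157 to 0.312 over all alternatives).

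The other subunits of GINS had smaller fitted changes than Gins1, and the differences between subunits were not tested. Gins2 averaged 31.1 ± 6.77 CPM in control and 28.6 ± 1.66 CPM in Gp130 ecKO uteri, and the fitted change was -0.12 on the log2 scale (adjusted p = 0.741) and 0.07 without control 3. Gins3 averaged 5.69 ± 2.37 and 4.12 ± 0.957 CPM (log2 fold change -0.45 ± 0.40, adjusted p = 0.497). Gins4, the subunit outside the 41 genes, had a log2 fold change of -0.08 ± 0.19 (28.9 ± 5 against 27.4 ± 0.204 CPM). Of the exon bases of Gins2, 67.3% lie opposite exons of Gse1. The libraries were strand-specific, but the sources do not say whether counting used the strand, so the level of Gins2 may hold reads of Gse1.

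Polymerase and fork genes were lower by a median log2 fold change of -0.69 over 12 genes, with 7 at an unadjusted p below 0.05 and 4 without overlap. The count of 7 became 1 without control 1, 2 without Gp130 ecKO 1, 3 without control 3 or Gp130 ecKO 3, and 9 without control 2. The count of 4 without overlap became 11 without control 2 and 7 without Gp130 ecKO 2. Rpa2, a subunit of the protein that coats single-stranded DNA (ENSMUSG00000028884, chr4:132495643-132506063), measured 34.5, 18.7 and 39.8 CPM in the controls, compared with 14.7, 14.8 and 13.1 CPM in the Gp130 ecKO uteri. All Gp130 ecKO values of Rpa2 lay within 2 CPM of each other and below control 2 (log2 fold change -1.12 ± 0.30, adjusted p = 0.098, 0.0252 without control 2, and 0.0135 to 0.267 over all alternatives). Fen1, the nuclease that trims Okazaki fragments (ENSMUSG00000024742, chr19:10176479-10182097), measured 44.7, 24.4 and 37.7 CPM against 20.2, 20.4 and 20.8 CPM. Its difference was smaller, with a log2 fold change of -0.80 ± 0.25 and an adjusted p of 0.12. Exons of Gm10143 and Tmem258 lie opposite its exons, and the larger of these overlaps covers 59% of its exon bases. Pola1, the catalytic subunit of polymerase alpha (ENSMUSG00000006678, chrX:92348365-92675813), measured 26.7, 18.2 and 26.9 CPM against 11.7, 16.4 and 13.8 CPM (log2 fold change -0.78 ± 0.25, adjusted p = 0.124). Pola2, the second subunit of the same polymerase, was similar in size, with a log2 fold change of -0.83 ± 0.28, and its groups did not overlap.

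The remaining fork genes had smaller differences or wider spread. Pole, the catalytic subunit of the leading strand polymerase, had the largest fitted fold change among them (12.6 ± 5.95 against 5.22 ± 2.75 CPM, log2 fold change -1.26, adjusted p = 0.187). Pcna, the sliding clamp, averaged 139.9 ± 42.5 and 85.9 ± 8.22 CPM (log2 fold change -0.70, adjusted p = 0.149), and Lig1, the ligase that joins Okazaki fragments, 39.4 ± 11 and 24.6 ± 3.91 CPM (log2 fold change -0.68, adjusted p = 0.163). The clamp loader genes Rfc3, Rfc4 and Rfc5 and the delta polymerase gene Pold1 had log2 fold changes between -0.33 and -0.49, all with an unadjusted p above 0.05. Prim1, the primase subunit that works in 1 complex with Pola1 and Pola2, had close means of 18.4 ± 3.61 and 16.4 ± 3.09 CPM (log2 fold change -0.16, and 0.01 without control 3). Of the 75-base stretches of Pcna, 12.1% are shared with the pseudogene Pcna-ps2, and 41.4% of the exon bases of Rfc5 lie opposite Wsb2.

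The sequence upstream of Rpa2 is shown for the smallest p of the fork genes, from the same source and with CCAAT or ATTGG in capitals. It is cut at the first base of the annotated gene, and distances of -231, -84 and -52 are from the RefSeq start.
Rpa2, chr4:132495421-132495642, plus strand: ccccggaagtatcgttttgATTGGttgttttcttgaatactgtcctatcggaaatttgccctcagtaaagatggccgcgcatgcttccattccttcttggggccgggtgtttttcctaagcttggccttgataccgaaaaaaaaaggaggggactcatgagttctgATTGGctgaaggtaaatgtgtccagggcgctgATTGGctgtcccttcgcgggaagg

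Nucleotide supply genes ranged from the smallest p among all members to nearly equal means, with a median log2 fold change of -1.16 over 5 genes, 2 of them at an unadjusted p below 0.05 (1 without control 1, control 3 or Gp130 ecKO 3, 3 without Gp130 ecKO 2 and 4 without control 2). Dut, which removes dUTP and makes the precursor of dTTP (ENSMUSG00000027203, chr2:125089110-125100966), measured 51.1, 30.6 and 59.3 CPM in the controls, compared with 17.5, 21.4 and 24.1 CPM in the Gp130 ecKO uteri. Every control, control 2 included, was above every Gp130 ecKO uterus (log2 fold change -1.16 ± 0.28, adjusted p = 0.0873, 0.0274 without control 2, and 0.00692 to 0.261 over all alternatives). Rrm2, the inducible subunit of ribonucleotide reductase (ENSMUSG00000020649, chr12:24757811-24764145), measured 47.0, 18.5 and 40.0 CPM against 3.16, 16.2 and 13.0 CPM. Gp130 ecKO 1 was far below the other 2 Gp130 ecKO uteri, which were close to control 2, and the log2 fold change was -1.70 ± 0.59 (adjusted p = 0.144). Of the exon bases of Rrm2, 43.3% lie opposite the gene Gm59512, with the same doubt on strand as for Gins2. Tk1, the thymidine kinase of the salvage pathway (ENSMUSG00000025574, chr11:117702770-117717042), measured 41.3, 15.1 and 22.1 CPM against 3.39, 15 and 12.9 CPM. Its groups came closest at 15.1 and 15 CPM (log2 fold change -1.33 ± 0.58, adjusted p = 0.205).

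Rrm1, the large subunit of ribonucleotide reductase, had a log2 fold change of -0.35 (90 ± 24 against 70.4 ± 3.46 CPM). The CPM ratio of Rrm2 to Rrm1 was 0.417, 0.287 and 0.431 in control uteri 1, 2 and 3, compared with 0.0473, 0.23 and 0.176 in Gp130 ecKO uteri 1, 2 and 3, without overlap. Tyms, thymidylate synthase, had close means (42.7 ± 5.55 against 42.0 ± 14.1 CPM, log2 fold change -0.03, adjusted p = 0.956), and the sign of its difference turned with 4 of the 6 uteri left out in turn. Rrm2b, the alternative small subunit of the reductase that p53 induces and that is not among the 41 genes, lay the other way, at 29.3, 32.7 and 19.7 CPM in control and 79.6, 57.9 and 45.8 CPM in Gp130 ecKO uteri. Its log2 fold change was 1.16 ± 0.27 (adjusted p = 0.0865), and the lowest Gp130 ecKO value exceeded the highest control value. The CPM ratio of Rrm2b to Rrm2 was 0.624, 1.76 and 0.493 in the controls and 25.1, 3.58 and 3.52 in the Gp130 ecKO uteri, without overlap. CPM is not scaled for gene length, so the ratio compares uteri and not the levels of the 2 genes. Both ratios were chosen after the values were seen.

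The chromatin genes were lower in all 3 cases at an unadjusted p below 0.05, with a median log2 fold change of -1.29, and 1 of 3 was so without control 1, control 3, Gp130 ecKO 1 or Gp130 ecKO 3. Uhrf1, which directs DNA methylation to newly copied DNA (ENSMUSG00000001228, chr17:56610275-56630489), measured 62.1, 23.9 and 110.6 CPM in the controls, compared with 14.2, 26.3 and 18.3 CPM in the Gp130 ecKO uteri. Controls 1 and 3 were more than 2-fold above the highest Gp130 ecKO uterus and control 2 was just below it. The log2 fold change of Uhrf1 was -1.74 ± 0.52 (adjusted p = 0.115, 0.027 without control 2, and 0.0145 to 0.311 over all alternatives). Chaf1b, a subunit of the histone chaperone that follows the fork (ENSMUSG00000022945, chr16:93680768-93703003), measured 13.6, 6.67 and 13.3 CPM against 2.71, 6.50 and 4.48 CPM (log2 fold change -1.29 ± 0.43, adjusted p = 0.133). Chaf1a, its partner subunit (ENSMUSG00000002835, chr17:56347303-56379289), measured 26, 14.5 and 33.1 CPM against 9.72, 15 and 12.5 CPM (log2 fold change -0.98 ± 0.34, adjusted p = 0.14). Both chaperone genes had control 2 next to Gp130 ecKO 2, and 51% of the exon bases of Chaf1a lie opposite Ubxn6. Uhrf1 shares 5.8% of its 75-base stretches with Gm5648.

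The E2F and cyclin E genes had the largest median of the 6 roles, a log2 fold change of -1.83 over 6 genes, of which 5 had an unadjusted p below 0.05. Without control 3 that count was 1 and the median -1.33, and the count was 2 without Gp130 ecKO 3 and 3 without Gp130 ecKO 1. E2f8, a repressor that E2F itself induces (ENSMUSG00000046179, chr7:48516176-48531452), measured 15, 4.82 and 18.6 CPM in the controls, compared with 2.03, 5.38 and 2.57 CPM in the Gp130 ecKO uteri. Control 2 was below Gp130 ecKO 2, with a log2 fold change of -1.93 ± 0.58 (adjusted p = 0.117, 0.0431 without control 2, and 0.0139 to 0.311 over all alternatives). Ccne2, a cyclin E gene (ENSMUSG00000028212, chr4:11190303-11204947), measured 21.4, 10.3 and 38.4 CPM against 3.30, 10 and 7.59 CPM (log2 fold change -1.74 ± 0.56, adjusted p = 0.126). E2f1, an activator of S phase genes (ENSMUSG00000027490, chr2:154401326-154411812), measured 15.5, 7.02 and 20.5 CPM against 1.09, 6.27 and 3.69 CPM. The groups of Ccne2 and E2f1 did not overlap, with control 2 just above Gp130 ecKO 2 in each, and the log2 fold change of E2f1 was -1.95 ± 0.64 (adjusted p = 0.13).

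Ccne1, the other cyclin E gene, averaged 9.27 ± 6.60 CPM in control and 2.37 ± 1.66 CPM in Gp130 ecKO uteri (log2 fold change -1.93, adjusted p = 0.156). Control 3 held 16.7 CPM of Ccne1 against 7.12 and 4.01 CPM in controls 1 and 2. With a uterus left out, the log2 fold change of Ccne1 ranged from -2.55 to -1.22. E2f7, the second repressor of this type, was low throughout, at 4.3 ± 1.01 and 1.62 ± 1.06 CPM without overlap (log2 fold change -1.39, adjusted p = 0.18). E2f2, an activator like E2f1, went against the rest of the list, at 5.42, 5.05 and 5.93 CPM in the controls, compared with 3.16, 6.73 and 8.62 CPM in the Gp130 ecKO uteri. Its Gp130 ecKO values spread to both sides of the controls (log2 fold change 0.18 ± 0.40, adjusted p = 0.796, and -0.11 without Gp130 ecKO 3). The CPM ratio of E2f1 to E2f2 was 2.87, 1.39 and 3.45 in the controls and 0.343, 0.931 and 0.428 in the Gp130 ecKO uteri, again a ratio chosen after the values were seen.

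**Figure D3:**
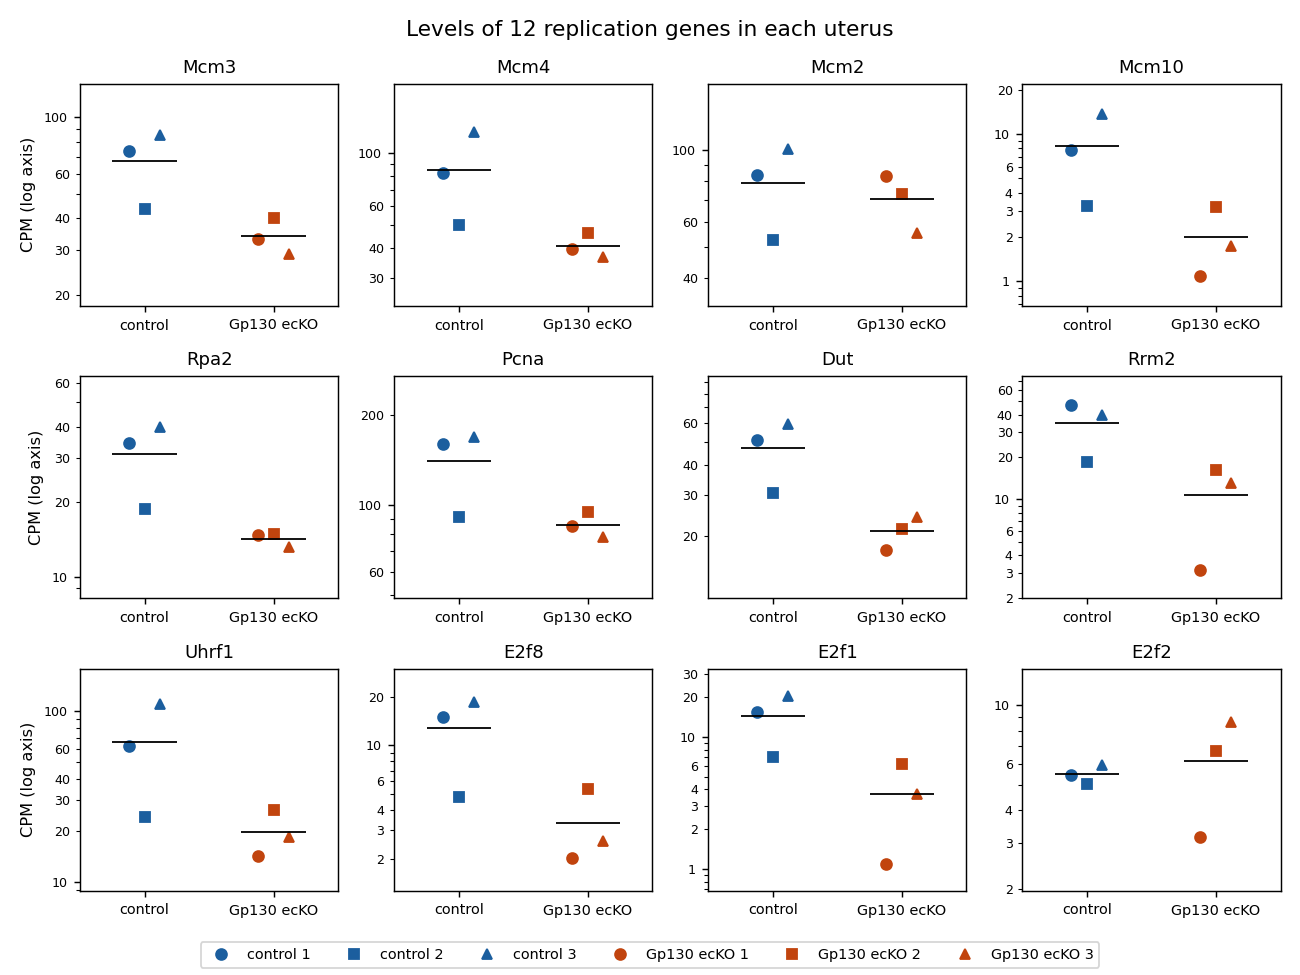
CPM on log axes of 12 of the 41 genes in each control (blue) and Gp130 ecKO (orange) uterus, with symbols for uterus 1, 2 and 3 and a line at the group mean. Rpa2 and Dut show all Gp130 ecKO uteri below all controls, Uhrf1 and E2f8 show control 2 among the Gp130 ecKO uteri, and Mcm2 and E2f2 show overlapping groups.

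Because these genes are known targets of E2F, their promoters were searched on both strands for TTTCCCGC and TTTGGCGC, forms of the E2F site. Either was found in 12 of the 42 promoters of the 36 matched members (28.6%), each promoter 300 bases long, and in 1.56% of all 32851 promoters. The members with a match were Cdc6, Cdt1, E2f2, E2f7, Gins3, Mcm3, Mcm5, Mcm6, Mcm7, Pola1, Pold1 and Rfc3, with 2 matches in Mcm3 and in Mcm6. The first match of each follows in 30 bases from RefSeq on the gene's strand with GRCm39 coordinates, with the matching letters (or their reverse complement) in capitals. The match lies upstream of the start in Cdc6 (-138), E2f7 (-198), Gins3 (-41), Mcm5 (-149), Mcm6 (-110), Mcm7 (-165) and Pola1 (-138), and at or after it in Rfc3 (0), Mcm3 (19), Cdt1 (32), E2f2 (39) and Pold1 (39), counted from 0 at the RefSeq start. By the GENCODE annotation, whose genes can begin earlier, the windows of Cdc6, Gins3 and Mcm7 lie inside the gene as well.
Cdc6, chr11:98798828-98798857, plus strand: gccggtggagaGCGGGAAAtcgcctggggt
Cdt1, chr8:123294774-123294803, plus strand: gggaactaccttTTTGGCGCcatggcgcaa
E2f2, chr4:135899605-135899634, plus strand: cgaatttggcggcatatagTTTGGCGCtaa
E2f7, chr10:110581091-110581120, plus strand: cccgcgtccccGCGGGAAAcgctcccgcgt
Gins3, chr8:96360135-96360164, plus strand: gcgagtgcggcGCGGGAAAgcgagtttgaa
Mcm3, chr1:20890499-20890528, minus strand: aaacttccgtgGCGGGAAAacttgggaagt
Mcm5, chr8:75835977-75836006, plus strand: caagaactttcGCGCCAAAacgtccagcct
Mcm6, chr1:128287534-128287563, minus strand: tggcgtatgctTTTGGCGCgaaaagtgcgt
Mcm7, chr5:138170292-138170321, minus strand: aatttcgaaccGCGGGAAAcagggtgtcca
Pola1, chrX:92675881-92675910, minus strand: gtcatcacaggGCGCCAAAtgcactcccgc
Pold1, chr7:44198190-44198219, minus strand: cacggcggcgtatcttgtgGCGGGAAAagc
Rfc3, chr5:151574655-151574684, minus strand: ctttcgcgctcGCGGGAAAactctactgtc
Of the 12 members with these letters, 6 had an unadjusted p below 0.05 (Cdc6, Cdt1, E2f7, Mcm3, Mcm5 and Pola1), and of the 24 matched members without them, 15 did. A match is a description of the letters, and none of these data measure binding.

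**Figure D4:**
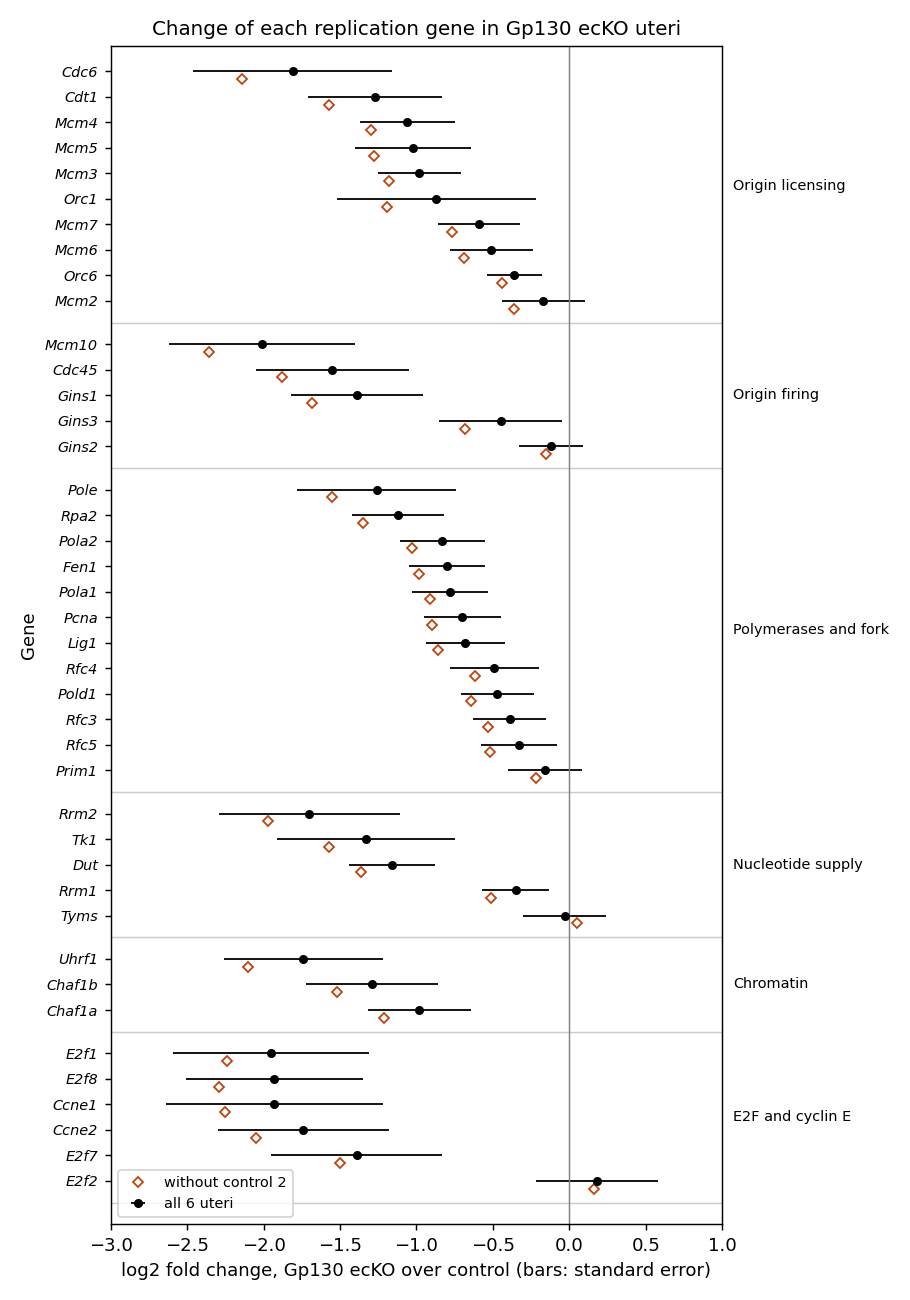
Fitted log2 fold change of each of the 41 genes, Gp130 ecKO over control, by role, with the standard error as a bar for all 6 uteri (black points) and the fitted value without control 2 (open diamonds). Only E2f2 lies above 0 with all 6 uteri, and Mcm2, Gins2, Prim1, Tyms and E2f2 lie within 0.2 of 0.

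Levels between genes were compared in TPM, which the authors scaled for gene length, as means of the 3 control uteri. Pcna was the most abundant member at 195.5 ± 70.6 TPM, followed by Tyms (70.5 ± 11.7), Mcm3 (65.4 ± 36.2), Rrm1 (63.4 ± 16.8) and Dut (63.2 ± 22.1). The order from Tyms to Dut lies within the spread of the uteri. The lowest were Gins3 (3.12 ± 1.51 TPM), Orc1 (2.62 ± 2.39), E2f2 (1.58 ± 0.176) and E2f7 (1.12 ± 0.182). The E2F regulators were thus near the bottom of the range, where values rest on fewer counts.

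A further 75 genes of the pathway, outside the 41, were lower by a median log2 fold change of -0.43, and none was called by the quasi-likelihood test. At an unadjusted p below 0.05, 20 were lower and 4 were higher, against 12.9% and 12.1% of all tested genes, shares that also apply to each list that follows. Other tests called 4 lower and 1 higher (exact test of edgeR), 4 and 1 (likelihood ratio test) and 5 and 1 (DESeq2). Over all genes these tests called 3.79%, 4.01% and 4.87% lower, and 622, 651 and 734 genes higher. Without control 2 the quasi-likelihood test called 3 of the 75, all lower, against 1.81% of all genes. Among 43 further origin, fork and nucleotide genes, 12 were lower and 2 higher. The 12 became 5 without Gp130 ecKO 1, 6 without control 3, 7 without control 1 or Gp130 ecKO 3, and 18 without control 2. Top2a, the topoisomerase that untangles copied DNA, measured 168.9, 124.5 and 175.0 CPM in control and 25.8, 57.5 and 36.9 CPM in Gp130 ecKO uteri (log2 fold change -1.96 ± 0.31, adjusted p = 0.0548, 0.0253 without control 2, and 2.72e-06 to 0.156 over all alternatives), with control 2 more than 2-fold above every Gp130 ecKO uterus. The second gene with the smallest p in this list was Rrm2b, given above. Among 20 genes of the RB, E2F and cyclin-dependent kinase 2 pathway, 6 were lower and 2 higher. The 6 became 2 without control 3, Gp130 ecKO 1 or Gp130 ecKO 3, 4 without control 1, and 8 without control 2. Rbl2, an RB family protein of resting cells, measured 52.5, 64.8 and 55.1 CPM against 119.1, 94.9 and 83.4 CPM (log2 fold change 0.79 ± 0.19, adjusted p = 0.0877), and Mybl2, an activator of late cell cycle genes, 7.44, 2.51 and 8.67 CPM against 0.588, 2.27 and 1.24 CPM (-2.15 ± 0.62, adjusted p = 0.112). Of 12 genes of the S phase checkpoint, 2 were lower, a share near that of all genes, among them Clspn, which activates the checkpoint kinase (log2 fold change -1.55 ± 0.66, adjusted p = 0.199), with overlapping groups. The number of checkpoint genes lower was 3 without control 2 or Gp130 ecKO 2 and 0 without any other uterus. Mki67, a marker of dividing cells, measured 56.1, 28.1 and 58.7 CPM in control and 3.21, 25.6 and 14.5 CPM in Gp130 ecKO uteri, with the same uteri at the edges (log2 fold change -1.72 ± 0.66, adjusted p = 0.167).

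Il6st, the targeted gene, measured 631.1, 678.1 and 451.6 CPM in the controls, compared with 387.7, 349.8 and 361.8 CPM in the Gp130 ecKO uteri, lower in every Gp130 ecKO uterus (log2 fold change -0.68 ± 0.21, adjusted p = 0.12). These counts cover the whole gene and all cells of the tissue. Markers of other tissues were compared in the same libraries, and none was called by the quasi-likelihood test. Of 7 stroma markers, 6 were lower in Gp130 ecKO at an unadjusted p below 0.05 (median log2 fold change -0.83). The summed level of the 7 was 2482.4 to 2884.5 CPM in control and 1217.3 to 1746.8 CPM in Gp130 ecKO uteri. The number of stroma markers lower was 4 without control 2 or Gp130 ecKO 1, and 5 without control 1, control 3 or Gp130 ecKO 2. All 5 endothelium markers were lower at that threshold (median -1.26, summed 351.2 to 875.1 against 192.1 to 341.7 CPM). The number became 3 without control 1 (median -0.86) or without Gp130 ecKO 1 (median -1.06). Of 7 epithelium markers, 3 were higher at that threshold (Krt8, Krt19 and Cdh1). Without control 2, Krt8 and Krt19 were called higher by the quasi-likelihood test (adjusted p = 0.034 and 0.00703), as were 582 of 17142 genes in all. Krt18, Cldn7 and Foxa2 had log2 fold changes of 0.74, 0.27 and 0.26 with overlapping groups, and Epcam was at -0.19 (458.8 ± 165.9 against 402.0 ± 34.7 CPM). The epithelium sum was 1980.1 to 2920.9 CPM in control and 4157.5 to 5568.6 CPM in Gp130 ecKO uteri. Myometrium markers were present and overlapped, although the design text speaks of endometrium. Their sum was 2780.7, 2080.8 and 567.8 CPM in control uteri 1, 2 and 3, and 475.4, 897.6 and 2994.3 CPM in Gp130 ecKO uteri 1, 2 and 3. The lowest sum of each group was in control 3, the highest control for 33 members, and in Gp130 ecKO 1, the lowest Gp130 ecKO uterus for 29. None of the 6 leukocyte markers with enough reads had an unadjusted p below 0.05. Without Gp130 ecKO 2, 3 leukocyte markers were lower at that threshold, and the leukocyte median log2 fold change went from -0.46 to -1.09. The B cell marker Ms4a1 had at most 2 counts, and the embryo markers Pou5f1, Nanog, Sox2 and Cdx2 had at most 7 counts in any uterus. Gata6, the other embryo marker of the list, was at 3.13 to 10.4 CPM in control and 3.69 to 6.96 CPM in Gp130 ecKO uteri. Control 2, low in replication genes, had the highest summed stroma level of all uteri at 2884.5 CPM. Its summed epithelium level was also the highest of the controls, at 2920.9 CPM against 2797.1 and 1980.1 CPM in controls 1 and 3. The part of these cell types in the replication gene values was not tested, and in whole tissue, fewer cells of a type and less RNA per cell cannot be told apart.

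**Figure D5:**
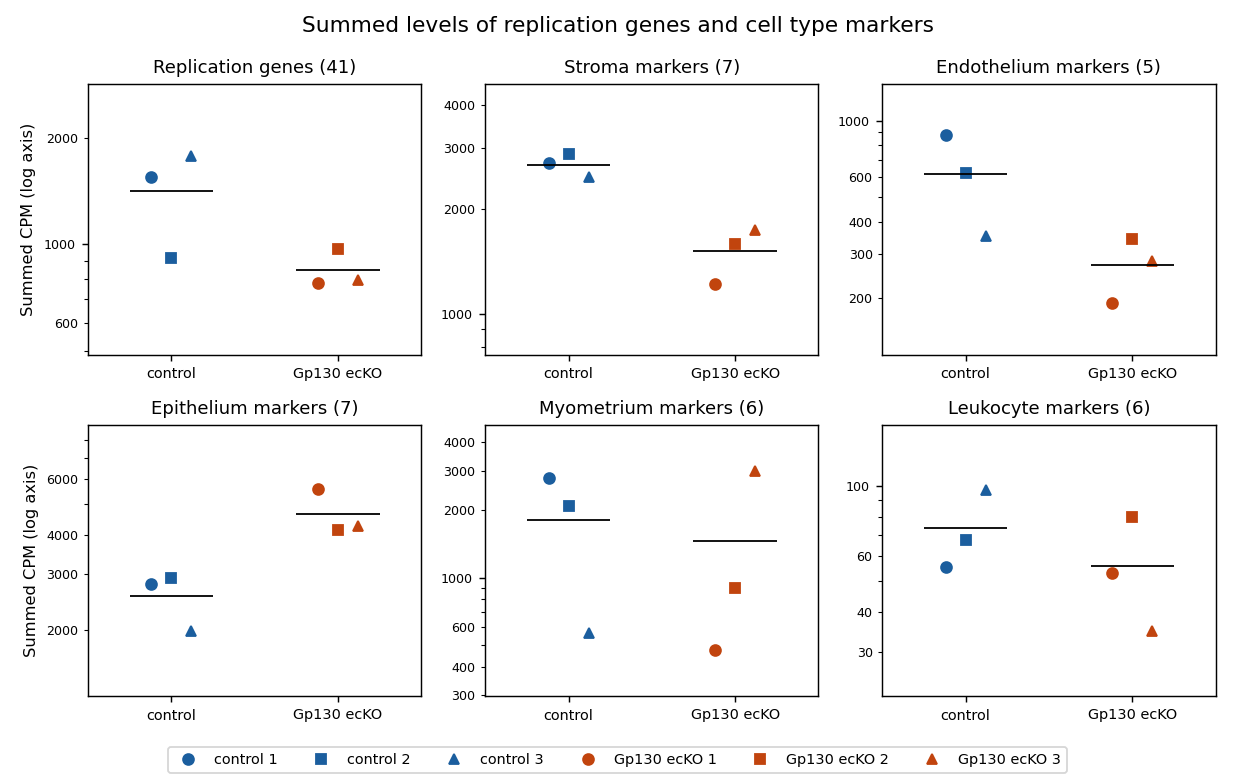
Summed CPM on log axes of the 41 replication genes and of the marker genes of 5 tissues or cell types in each uterus, with a line at the group mean. The sums of stroma and endothelium markers were lower and the sum of epithelium markers higher in every Gp130 ecKO uterus than in every control. Control 2 was low in replication genes, and its stroma and epithelium sums were the highest of the controls.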

How the data were processed

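RNA of 3 control and 3 Gp130 ecKO uteri was sequenced by the authors as single reads of strand-specific poly(A) libraries. Per the labels, reads were trimmed with fastp 0.23.2, mapped to GRCm39 with STAR 2.7.10a and quantified with RSEM 1.3.3, after removal of ribosomal RNA reads. The deposited tables hold an expected count per gene, which RSEM estimates by dividing shared reads, a TPM value scaled for length, and an estimated gene length that differs between uteri. The annotation version, and whether counting used the strand, are not given in the sources used here.

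Expected counts were rounded, then tested with edgeR 4.0.16 in R 4.3.3 (filterByExpr, TMM scaling, quasi-likelihood F test without the legacy setting, Benjamini-Hochberg over 16605 genes). The standard error of a log2 fold change was obtained by dividing it by the root of its F value. The test was run on simulated data first. The 41 members and all lists were chosen with earlier results of these data known. In each role the 3 members with the smallest p are given in every uterus, as are Il6st and Mki67, and in each further list the 2 genes with the smallest p are named, except for 1 gene that is not reported here. Symbols and coordinates are from GENCODE M39, which holds 56017 of the 56748 gene IDs. Promoters are from RefSeq (GRCm38.p6), which holds 36 members and lacks Ccne2, Gins1, Gins2, Mcm4 and Pole. TPM served only to compare levels between genes. Alternatives were DESeq2 1.42.0, other edgeR tests, other scaling and filters, counts not rounded, a replicate block, and each uterus left out.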

Additional observations from a re-analysis of the deposited data

How the results depend on the processing

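The median log2 fold change of the members stayed below 0 under every alternative run, from -0.71 (without control 3) to -1.19 (without control 2), and other scaling moved the median of all genes by at most 0.05. No member was called with the legacy quasi-likelihood test, other scaling, other filters or counts that were not rounded, while 7 were called by the exact test of edgeR, 8 by its likelihood ratio test and 15 by DESeq2. With each uterus left out, the members called ranged from 0 to 9 (9 without control 2, 0 without any other uterus). Those at an unadjusted p below 0.05 ranged from 10 (without control 3) to 30 (without control 2), with 13 without control 1, 12 without Gp130 ecKO 1 and 11 without Gp130 ecKO 3. Those without overlap ranged from 15 to 36 (36 without control 2, 28 without Gp130 ecKO 2). Of the 75 further genes, 24 passed the unadjusted threshold in either direction, and 10 to 33 with a uterus left out (14 without control 1, 12 without control 3, 10 without Gp130 ecKO 1, 13 without Gp130 ecKO 3). Fewer uteri were compared in each of these, and beyond that the cause was not tested. The sign turned in some settings for 6 genes. With a uterus left out, Orc1, which rests on control 3, ranged from -1.26 to 0.08. Of the genes near 0, Mcm2 from -0.36 to 0.04, Gins2 from -0.19 to 0.07, Prim1 from -0.31 to 0.01, Tyms from -0.29 to 0.20 and E2f2 from -0.11 to 0.50, and Tyms was 0.00 without a filter on low counts. The other values of single genes kept their direction, and 45 of them had an adjusted p below 0.05 under an alternative, of which 39 were also more than 2-fold and so called.

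Replicate numbers are shared between the groups, and the deviations of same-numbered uteri correlated at 0.10, 0.07 and -0.20 over 16605 genes. Control 2 and Gp130 ecKO 1 correlated best with their own number, while the other 4 uteri did not. These values show no clear pairing by number, but with 3 uteri per group they cannot exclude one. With the replicate number as a block, 0 members were called, 18 members had an unadjusted p below 0.05 against 25 without it, 18 of the 75 further genes did, and the median was -0.93. Depth is lowest in control 3, with 13960748 counts.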

Other observations

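RSEM reports for each gene a length averaged over its transcripts by their estimated abundance, and this differed between uteri for 40 of the 41 members. Pold1 had the widest range of the members as a ratio (2.55 from highest to lowest), with 1284, 1569 and 1043 bases in control uteri 1, 2 and 3, compared with 2659, 1985 and 1799 bases in Gp130 ecKO uteri 1, 2 and 3, which did not overlap. The estimated length was longer in every Gp130 ecKO uterus for 4 members (Dut, Pold1, Rfc3 and Rrm1; 9.76%) and shorter for Uhrf1, against 7.65% and 7.68% of all tested genes. For Mcm3 it ranged from 1208 (control 3) to 2428 bases (Gp130 ecKO 2) with overlapping groups, so its TPM differs more between groups than its CPM does. Single reads of 75 bases place few reads on a single transcript, and transcripts were not tested.

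The ratio of Cdt1 to its inhibitor gene Gmnn, chosen after the values were seen, overlapped between groups: 1.32, 1.17 and 2.92 in control uteri 1, 2 and 3, compared with 1.92, 1.62 and 1.2 in Gp130 ecKO uteri 1, 2 and 3.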
